A study of Mus musculus with 8 samples.

Results

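The genes described here are 10 markers in common use for pericytes and vascular smooth muscle cells, taken by symbol, and each was found on exactly 1 of the 49585 gene rows of every library. They fall into 5 genes of the contractile apparatus and the desmin filament (Acta2, Tagln, Myh11, Cnn1 and Des) and 5 pericyte-associated genes (Rgs5, Pdgfrb, Cspg4, Abcc9 and Kcnj8). The data are bulk RNA sequencing of whole pituitary from perfused wild-type C57BL/6 mice. There were 4 libraries from old mice (18 to 24 months) and 4 from young mice (2 to 3 months), the libraries of each age are numbered as replicates, and the sources used here do not state their sex. The comparison of the ages asks which transcripts of the gland differ in old mice. Neither labels nor methods say whether 1 mouse gave 1 library, and p-values are therefore about the spread among these libraries, which may be technical. Levels are in FPKM (fragments divided by exon length and by the library's total), which are per length and can be compared between genes. In RNA from the whole gland, fewer cells of a type and less RNA per cell cannot be told apart.

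Pericytes and vascular smooth muscle cells, together called mural cells, wrap the endothelium of capillaries and larger vessels. Smooth muscle cells carry an actin and myosin apparatus that sets the width of arterioles. Pericytes sit on capillaries, are recruited by platelet-derived growth factor B acting on its beta receptor, and in many tissues carry a potassium channel that couples metabolism to vessel tone. In the anterior pituitary, a gland supplied by a fenestrated capillary plexus, mural cells are a minor population beside the hormone-secreting cells.

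The libraries held 16098530 to 19272104 fragments in old and 15042321 to 20429604 in young pituitary. The 7 hormone genes took 9.05 to 11.6% of the fragments in old and 12.0 to 14.1% in young pituitary, and a ribosomal RNA repeat took 33.8 to 38.1% in old and 33.8 to 40.3% in young pituitary. Old replicate 4 stood apart in genes of the posterior lobe: the 7 markers of pituicytes, its glial cells, summed to 7.94 FPKM in that library, against 2.02 to 2.85 FPKM in the other old and 1.33 to 1.92 FPKM in the young libraries. In old replicate 4, Rax reached 0.480 FPKM and Nkx2-1 0.422 FPKM, whereas in the other 7 libraries both were at or below 0.035 FPKM. Scn7a (3.00 FPKM, against at most 0.107 FPKM elsewhere) and Lhx2 (0.377 FPKM, against at most 0.075 FPKM) went the same way. Col25a1 was highest there too, at 2.91 FPKM. It was 1.01 to 1.66 FPKM in the other old and 0.414 to 0.605 FPKM in the young libraries. The remaining markers did not share this: Vcan was lowest in old replicate 4, at 0.466 FPKM. Adm, at 0.283 FPKM there, lay within the range of the other libraries. Of the 7 markers, 4 were tested and 0 passed in limma (1 higher at an unadjusted p under 0.05, and 1 higher with voom). Where leaving out this library moved a value below by over 1.5 times, that value is given too, and the part of posterior lobe tissue in them was not tested.

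The 10 genes ranged from well measured to nearly absent. Rgs5 was the most abundant at 20.7 ± 5.98 FPKM over the 8 libraries (SD, n = 8), and its lowest library lay above the highest library of every other gene. Pdgfrb at 3.39 FPKM, Kcnj8 at 2.21, Tagln at 1.81 and Abcc9 at 1.56 FPKM followed. Acta2 averaged 0.796 FPKM, Des 0.527, Myh11 0.373 and Cspg4 0.225 FPKM. Cnn1 came last at 0.0367 FPKM. From Pdgfrb down to Cspg4, each gene's range over the libraries overlapped that of the next, and only the steps from Rgs5 to Pdgfrb and from Cspg4 to Cnn1 were larger than the spread. Of the 10 genes, 9 were above 0 in every library.

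**Figure D1:**
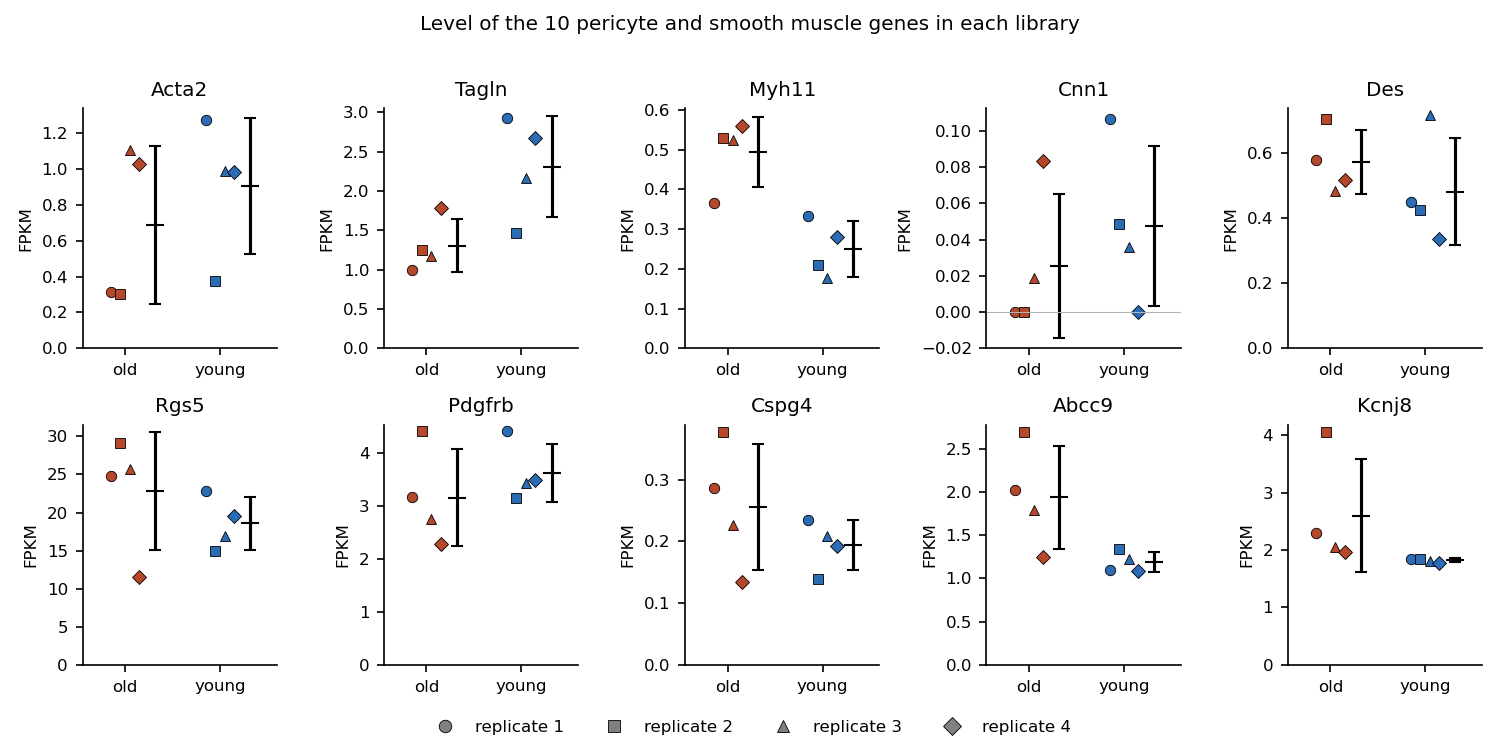
FPKM of the 10 genes in each library on linear axes, one panel per gene, with old pituitary left of young pituitary. Symbols mark the replicate number and bars the mean ± SD of 4 libraries. Myh11 and Kcnj8 are the panels in which every old library lies above every young one, and old replicate 2 is the highest library for Rgs5, Cspg4, Abcc9 and Kcnj8.

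Acta2 encodes smooth muscle alpha actin, the main thin filament protein of these cells (chr19:34241090-34255590, minus strand, GRCm38). It stood at 0.314, 0.304, 1.11 and 1.03 FPKM in old replicates 1 to 4, against 1.27, 0.373, 0.989 and 0.982 FPKM in young replicates 1 to 4. In each age the libraries fell into low and high ones, and the ages overlapped. The log2 fold change of FPKM + 0.1, old over young, was -0.44 (95% interval -1.59 to 0.71, adjusted p = 0.64 from limma), so a fall of more than 2-fold and a rise were both within the interval. It was -0.67 without old replicate 4 and -0.18 without old replicate 2. These values rest on 9 to 39 fragments per library, a number estimated with a fitted exon length because the annotated one did not give whole fragments. Actin genes share long stretches of near-identical coding sequence, so the level of Acta2 is uncertain.

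The Acta2 promoter is shown because serum response factor, which switches on contractile genes in smooth muscle, binds the CArG box. In the RefSeq promoter window of Acta2 (chr19:34255324-34255623, minus strand, GRCm38.p6, 250 bases before to 50 after the gene's start) capitals mark matches with 1 inner mismatch to that box, CCCTATATGG at base 167 and CCTTGTTTGG at base 217 counted from the 5′ end, and GGAATG, the reverse complement of the CATTCC element bound by TEAD factors, at base 105.
Acta2: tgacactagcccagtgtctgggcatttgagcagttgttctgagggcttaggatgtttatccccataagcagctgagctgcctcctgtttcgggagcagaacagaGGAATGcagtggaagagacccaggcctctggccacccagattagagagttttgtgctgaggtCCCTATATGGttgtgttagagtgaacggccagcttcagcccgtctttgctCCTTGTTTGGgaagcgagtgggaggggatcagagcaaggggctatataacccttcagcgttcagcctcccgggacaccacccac

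Such windows were searched for 7 of the 10 genes, and Acta2 was the 1 of them with a CArG box when 1 inner mismatch was allowed. For Tagln, Myh11 and Pdgfrb no window was searched, so the counts say nothing of these genes. Among 32851 promoter windows of the mouse, 9.98% held such a match on either strand. An exact CArG box was in 0 of the 7 windows and in 1.63% of all windows. The letters TATAAA were in 0 of the 7 windows and in 13.6% of all windows on either strand.

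Tagln encodes transgelin (SM22), an actin-binding protein of smooth muscle (chr9:45929619-45936058, minus strand, GRCm38). It measured 1.00, 1.25, 1.17 and 1.78 FPKM in old libraries, against 2.93, 1.47, 2.17 and 2.67 FPKM in young libraries. Old replicates 1 to 3 lay below every young library, and old replicate 4 lay above young replicate 2 alone. The mean was 1.30 ± 0.337 FPKM in old and 2.31 ± 0.641 FPKM in young pituitary (SD, n = 4 each), from 185 fragments in old and 329 in young libraries. With a log2 fold change of -0.77 (95% interval -1.34 to -0.19, unadjusted p = 0.0154, adjusted p = 0.137 from limma), Tagln did not pass the threshold. Exons of Pcsk7, on the opposite strand, overlap those of Tagln by 108 bases, and no strand setting for the counts is stated. Gm48529, an antisense gene of GENCODE M21, overlaps Tagln exons by 1241 bases and was not analysed here. Pcsk7 stood at 2.59 to 3.29 FPKM in old and 2.22 to 2.81 FPKM in young libraries.

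Myh11 encodes the smooth muscle myosin heavy chain (chr16:14194535-14291372, minus strand, GRCm38). Its level was 0.365, 0.530, 0.524 and 0.560 FPKM in old libraries, against 0.333, 0.211, 0.177 and 0.280 FPKM in young libraries. Every old library lay above every young one. The mean of 0.495 ± 0.0879 FPKM in old pituitary was 1.98-fold that of 0.250 ± 0.0701 FPKM in young pituitary (SD, n = 4 each). The log2 fold change was 0.77 (SE 0.18, 95% interval 0.36 to 1.19), with an unadjusted p of 0.00286 and an adjusted p of 0.069 from limma. These values rest on 236 fragments in old and 117 in young libraries, again with a fitted exon length. With voom on the recovered fragments, an analysis chosen after the data had been seen, the log2 fold change was 1.01 and the adjusted p 0.0215.

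Des and Cnn1 complete the group. Des encodes desmin, the intermediate filament of muscle and of many pericytes (chr1:75360329-75368579, plus strand, GRCm38). It read 0.579, 0.706, 0.484 and 0.518 FPKM in old libraries, against 0.449, 0.425, 0.717 and 0.335 FPKM in young libraries, and young replicate 3 was the highest library of all. Des had a log2 fold change of 0.24 (95% interval -0.24 to 0.71, adjusted p = 0.54 from limma). Gm15179, an antisense gene that shares 220 bases of exon with Des, was at 0.0565 FPKM in young replicate 3 and listed at 0 in the other libraries. Cnn1 encodes calponin, an actin-binding protein of differentiated smooth muscle (chr9:22099216-22109630, plus strand, GRCm38). It had 0, 0, 1 and 4 fragments in old libraries, against 5, 2, 2 and 0 fragments in young libraries. With a count of 0 allowing up to 3 fragments in a library, a difference in Cnn1 was not detectable at this depth, and at a mean below 0.1 FPKM it was not tested.

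Rgs5, a regulator of G-protein signaling and the transcript by which pericytes are most often recognized, lies at chr1:169655501-169695813 (plus strand, GRCm38). It measured 24.8, 29.1, 25.8 and 11.6 FPKM in old libraries, against 22.8, 14.9, 16.9 and 19.6 FPKM in young libraries. Old replicates 1 to 3 lay above every young library and old replicate 4 below every one. Over all libraries the log2 fold change was 0.23 (95% interval -0.47 to 0.93, adjusted p = 0.68 from limma). Without old replicate 4 it was 0.53, with an unadjusted p of 0.0169 and an adjusted p of 0.159 from limma, and without old replicate 2 it was 0.09 (adjusted p = 0.90). Rgs5 rests on 7440 fragments in old and 6007 in young libraries, so counting error is small beside the spread between the old libraries.

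Pdgfrb encodes the receptor through which endothelial platelet-derived growth factor B holds pericytes on the vessel (chr18:61045150-61085061, plus strand, GRCm38). It read 3.18, 4.40, 2.76 and 2.29 FPKM in old libraries, against 4.42, 3.16, 3.42 and 3.48 FPKM in young libraries. The highest library of each age reached about the same level, and the log2 fold change was -0.22 (95% interval -0.70 to 0.26, adjusted p = 0.57 from limma). Leaving out old replicate 4, its lowest library, gave -0.09 (adjusted p = 0.84), and leaving out old replicate 2 gave -0.39 (adjusted p = 0.27). Cspg4 encodes the NG2 proteoglycan of the pericyte surface, which oligodendrocyte precursors carry too (chr9:56865033-56899870, plus strand, GRCm38). It stood at 0.286, 0.376, 0.226 and 0.134 FPKM in old libraries, against 0.234, 0.139, 0.209 and 0.192 FPKM in young libraries. Its highest and its lowest library were both old, it rested on 218 fragments in old and 166 in young libraries, and the log2 fold change was 0.24 (95% interval -0.28 to 0.76, adjusted p = 0.57 from limma). For Cspg4 it was 0.43 without old replicate 4 (unadjusted p = 0.049, adjusted p = 0.24 from limma) and 0.08 without old replicate 2 (adjusted p = 0.85).

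Abcc9 and Kcnj8 encode the subunits of 1 channel, the sulfonylurea receptor SUR2 and the pore Kir6.1 of the ATP-sensitive potassium (KATP) channel of vascular cells. They are neighbours on chromosome 6, Kcnj8 at chr6:142564837-142571614 and Abcc9 at chr6:142587862-142702315, both on the minus strand (GRCm38), with 16247 bases and 0 annotated genes between them. Abcc9 measured 2.02, 2.69, 1.80 and 1.25 FPKM in old libraries, against 1.10, 1.34, 1.23 and 1.09 FPKM in young libraries. Old replicates 1 to 3 lay above every young library, and old replicate 4 lay within the young range. The mean of Abcc9 was 1.94 ± 0.598 FPKM in old and 1.19 ± 0.120 FPKM in young pituitary (SD, n = 4 each), from 1162 fragments in old and 704 in young libraries. The log2 fold change was 0.62 (SE 0.21, 95% interval 0.12 to 1.12, unadjusted p = 0.0211, adjusted p = 0.157 from limma), 0.80 without old replicate 4 (adjusted p = 0.071) and 0.66 with voom (adjusted p = 0.0479). Exons of 5330439B14Rik, an antisense gene, overlap those of Abcc9 by 158 bases. That gene stood at 0.969 to 2.14 FPKM in old and 0.418 to 1.34 FPKM in young libraries, and reads of the pair cannot be told apart without the strand setting.

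Kcnj8 was 2.29, 4.05, 2.06 and 1.97 FPKM in old libraries, against 1.85, 1.85, 1.81 and 1.78 FPKM in young libraries. All old libraries lay above all young ones, but old replicates 1, 3 and 4 did so by little and old replicate 2 by far. The mean was 2.59 ± 0.983 FPKM in old and 1.82 ± 0.0346 FPKM in young pituitary (SD, n = 4 each). The log2 fold change was 0.43 (95% interval -0.08 to 0.94, unadjusted p = 0.089, adjusted p = 0.30 from limma), and without old replicate 2 it was 0.20 (adjusted p = 0.32). The young libraries agreed to within 0.0346 FPKM (SD), which is less than the counting error of the 71 to 94 fragments that each held.

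The promoter windows of both subunits are shown because the genes are neighbours and both were highest in old replicate 2. Both lie on the minus strand of GRCm38.p6 in the RefSeq table, Abcc9 at chr6:142702225-142702524 and Kcnj8 at chr6:142571565-142571864. Capitals mark GGAATG, the reverse complement of CATTCC, at base 32 of the Abcc9 window, and the Kcnj8 window held none of the motifs searched.
Abcc9: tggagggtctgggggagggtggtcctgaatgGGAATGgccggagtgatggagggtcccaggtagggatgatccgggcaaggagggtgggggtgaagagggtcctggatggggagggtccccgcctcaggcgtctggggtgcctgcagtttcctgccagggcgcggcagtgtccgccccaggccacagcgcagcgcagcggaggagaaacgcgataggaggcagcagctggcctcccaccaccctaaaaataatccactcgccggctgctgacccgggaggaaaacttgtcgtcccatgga
Kcnj8: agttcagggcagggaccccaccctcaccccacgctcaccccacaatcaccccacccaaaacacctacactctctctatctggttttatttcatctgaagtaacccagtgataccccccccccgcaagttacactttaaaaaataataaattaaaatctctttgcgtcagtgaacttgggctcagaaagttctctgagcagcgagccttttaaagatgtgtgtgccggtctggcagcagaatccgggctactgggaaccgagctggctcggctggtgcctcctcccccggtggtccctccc

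The letters CATTCC were found on either strand in 2 of the 7 windows, those of Abcc9 and Acta2, and in 14.7% of all windows. A match is a description of these letters and not of a bound site.

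In the fit over 23498 genes, 0 of the 9 genes tested passed an adjusted p of 0.05 in limma in either direction, where 2.33% of all genes tested were called, 1.86% as higher and 0.472% as lower in old pituitary. At an unadjusted p under 0.05, Myh11 and Abcc9 were higher and Tagln was lower, 2 and 1 of 9, where 18% of all genes were higher and 3.79% lower. With voom, 2 of 9 were called higher (Myh11 and Abcc9) and 0 lower, where 5.45% of the 19213 genes in that fit were called higher and 1.41% lower. Tagln lay just short of the threshold there, with a log2 fold change of -0.82 (adjusted p = 0.0532 from voom). Voom used the fragment totals as library sizes, its median log2 fold change over all genes was 0.15, and it was not run with another scaling. On FPKM as deposited, the old libraries lay wholly above the young ones for 2 of 9 genes (Myh11 and Kcnj8), against 13.4% of all genes tested, and wholly below for 0 of 9, against 2.06%. Without old replicate 4 those counts were 4 higher (Abcc9, Kcnj8, Myh11 and Rgs5) and 1 lower (Tagln), against 17.7% and 3.44% of all genes. The median log2 fold change was -0.10 over the 4 contractile genes tested and 0.24 over the 5 pericyte-associated genes, beside 0.15 over all genes tested. Leaving out old replicate 4 took the pericyte-associated median to 0.53, beside 0.14 over all genes tested. The contractile genes were then at -0.92 (Tagln), -0.67 (Acta2), 0.27 (Des) and 0.72 (Myh11).

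Because FPKM carry a whole-library scaling, another one was tried, and median-ratio scaling took the median of all genes to 0.01. The called genes were then 210 higher and 210 lower, against 436 higher and 111 lower with FPKM as deposited. On that scale Tagln was at -0.91, Acta2 at -0.57 and Pdgfrb at -0.37. Rgs5 was at 0.08, Des at 0.11, Cspg4 at 0.14, Kcnj8 at 0.28, Abcc9 at 0.48 and Myh11 at 0.66, and each of the 9 genes kept its sign. The unadjusted p from limma was then 0.00542 for Tagln, 0.00645 for Myh11 and 0.0715 for Abcc9. Abcc9 thus no longer lay under 0.05 (adjusted p = 0.339). The separation of the ages depended on the scale too. After median-ratio scaling, Myh11 of young replicate 1 lay above that of old replicate 1, and Kcnj8 overlapped between the ages.

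**Figure D2:**
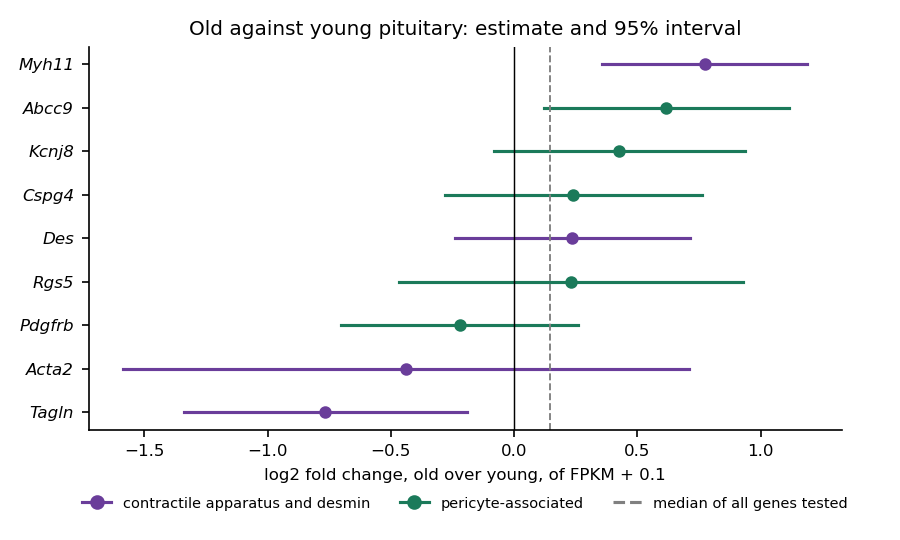
Log2 fold change of FPKM + 0.1, old over young pituitary, for the 9 genes tested, with dots at the estimate and bars over the 95% interval from limma. The dashed line is the median of all genes tested, 0.15, and the intervals of Myh11, Abcc9 and Tagln leave out 0.

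The 2 groups of genes mostly had different high and low libraries. Old replicate 2 was the highest library for 4 of the 5 pericyte-associated genes, and old replicate 4 was the lowest for 3 of them. Young replicate 1 was the highest for 3 of the 5 contractile genes (Acta2, Tagln and Cnn1) and for Pdgfrb. Old replicate 4, low in Rgs5, Pdgfrb and Cspg4, was the highest library for Myh11.

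Ratios of 2 genes within a library do not depend on its scaling. Of the 36 pairs of the 9 genes above 0 in every library, 5 had no overlap between the ages, and these were picked out after their values had been seen, so they are a description. The ratio of Myh11 to Tagln was 0.365, 0.424, 0.446 and 0.314 in old libraries, against 0.114, 0.143, 0.0818 and 0.105 in young libraries, a difference of 3.49-fold. Abcc9 over Pdgfrb was 0.636, 0.612, 0.652 and 0.547 in old libraries, against 0.248, 0.425, 0.359 and 0.313 in young libraries. Both ratios were tighter in old pituitary, relative to their mean, than the genes that make them up. In young pituitary this held for Myh11 over Tagln alone. There Abcc9 over Pdgfrb, at 0.336 ± 0.0745 (SD, n = 4), was looser than either of its genes. Kcnj8 over Pdgfrb was 0.722, 0.921, 0.746 and 0.864 in old libraries, against 0.419, 0.587, 0.528 and 0.511 in young libraries. The remaining pairs were Myh11 over Pdgfrb, 2.44-fold higher in old pituitary, and Myh11 over Rgs5, 1.90-fold higher. Myh11 over Rgs5 was 0.0147, 0.0182, 0.0204 and 0.0484 in old libraries, against 0.0146, 0.0141, 0.0105 and 0.0143 in young libraries. Old replicate 4 carried that fold, which was 1.33 without it, and old replicate 1 lay barely above young replicate 1. Without old replicate 4 the other 4 folds were 1.56 to 3.71. For comparison, the ratio to Pdgfrb lay wholly higher in old pituitary for 7.33% of all genes tested, the ratio to Tagln for 33% and the ratio to Rgs5 for 1.69%. Between the channel subunits, Abcc9 over Kcnj8 overlapped, at 0.763 ± 0.133 in old and 0.653 ± 0.0605 in young pituitary (SD, n = 4 each).

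**Figure D3:**
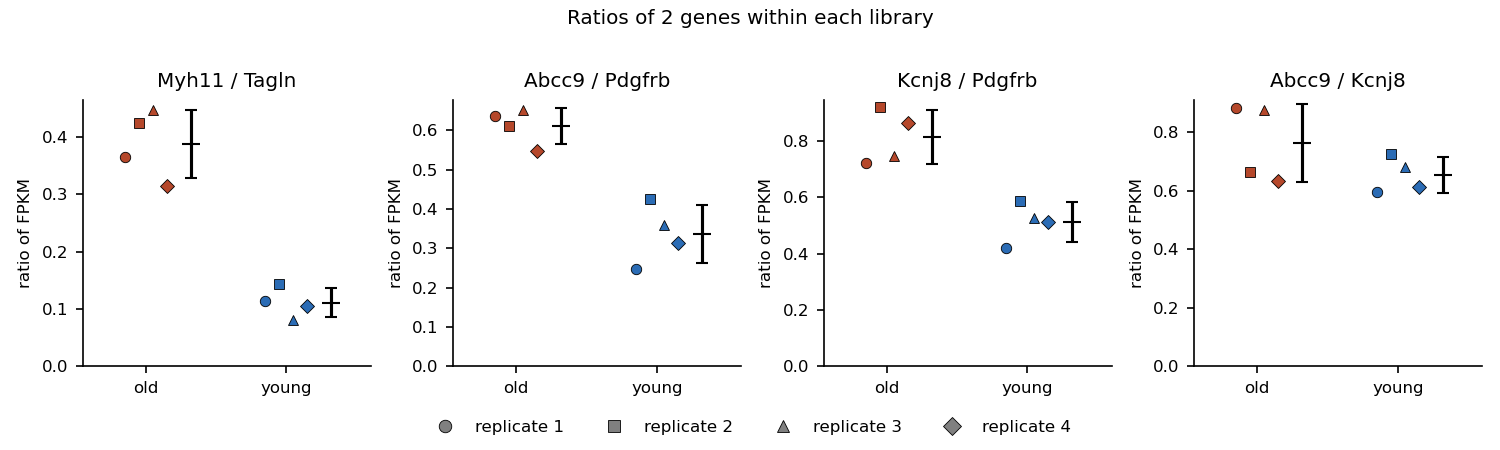
Ratio of the FPKM of 2 genes within each library, old left of young pituitary, with symbols for the replicate number and bars for the mean ± SD of 4 libraries. Myh11 over Tagln and the 2 ratios to Pdgfrb separate the ages, with old libraries above, and Abcc9 over Kcnj8 does not.

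Other genes of the same cells gave a mixed picture. Of 18 further smooth muscle contractile genes, 16 were tested and 0 passed the test in either direction (limma), with 2 higher and 1 lower at an unadjusted p under 0.05, 1 higher and 0 lower of 13 with voom, and a median log2 fold change of -0.03. Tpm2, a tropomyosin of the thin filament, was 0.299, 0.335, 0.268 and 0.236 FPKM in old libraries, against 0.680, 0.343, 0.589 and 0.470 FPKM in young libraries. Its old libraries all lay below the young ones, and the log2 fold change was -0.67 (adjusted p = 0.105 from limma). Casq2, which binds calcium in the sarcoplasmic reticulum of muscle, had a log2 fold change of 1.18 (adjusted p = 0.061) with 1.10 FPKM in old and 0.446 FPKM in young pituitary on average. Ppp1r14a, an inhibitor of myosin phosphatase, had one of 0.33 (adjusted p = 0.148).

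Among 16 further pericyte-associated genes, 14 were tested, 0 passed as higher and 1 as lower in limma (3 and 1 at an unadjusted p under 0.05, and 1 and 1 of 11 with voom), and the median log2 fold change was 0.02. The gene that fell was Rgs4, another regulator of G-protein signaling and the next gene to Rgs5 on chromosome 1 (chr1:169741477-169747642, minus strand, GRCm38), with 45663 bases and 0 genes between them. Rgs4 was 2.93, 3.18, 2.596 and 2.66 FPKM in old libraries, against 5.91, 4.61, 6.51 and 6.95 FPKM in young libraries. No old library reached the lowest young one, and the log2 fold change was -1.04 (SE 0.146, adjusted p = 0.0223 from limma). Leaving out young replicate 1 or 3, or old replicate 1, 2 or 3, took the adjusted p above 0.05, up to 0.071, with log2 fold changes of -1.16 to -0.97 over the 8 fits that leave out a library. Rgs4 is also known from neurons. Rgs5 over Rgs4 was 8.48, 9.16, 9.92 and 4.35 in old libraries, against 3.86, 3.23, 2.604 and 2.82 in young libraries. Vtn, which encodes vitronectin and marks brain pericytes, had 3.73, 4.61, 4.17 and 1.66 FPKM in old libraries, against 1.83, 1.02, 1.54 and 1.51 FPKM in young libraries. Old replicate 4 was the lowest old library and lay within the young range, and the log2 fold change of Vtn was 1.14 (adjusted p = 0.11 from limma) with it and 1.46 (adjusted p = 0.035) without it. Cox4i2, a subunit of cytochrome c oxidase, had a log2 fold change of 0.87 (adjusted p = 0.21), and P2ry14, a receptor for UDP sugars, one of 0.58 (adjusted p = 0.13).

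**Figure D4:**
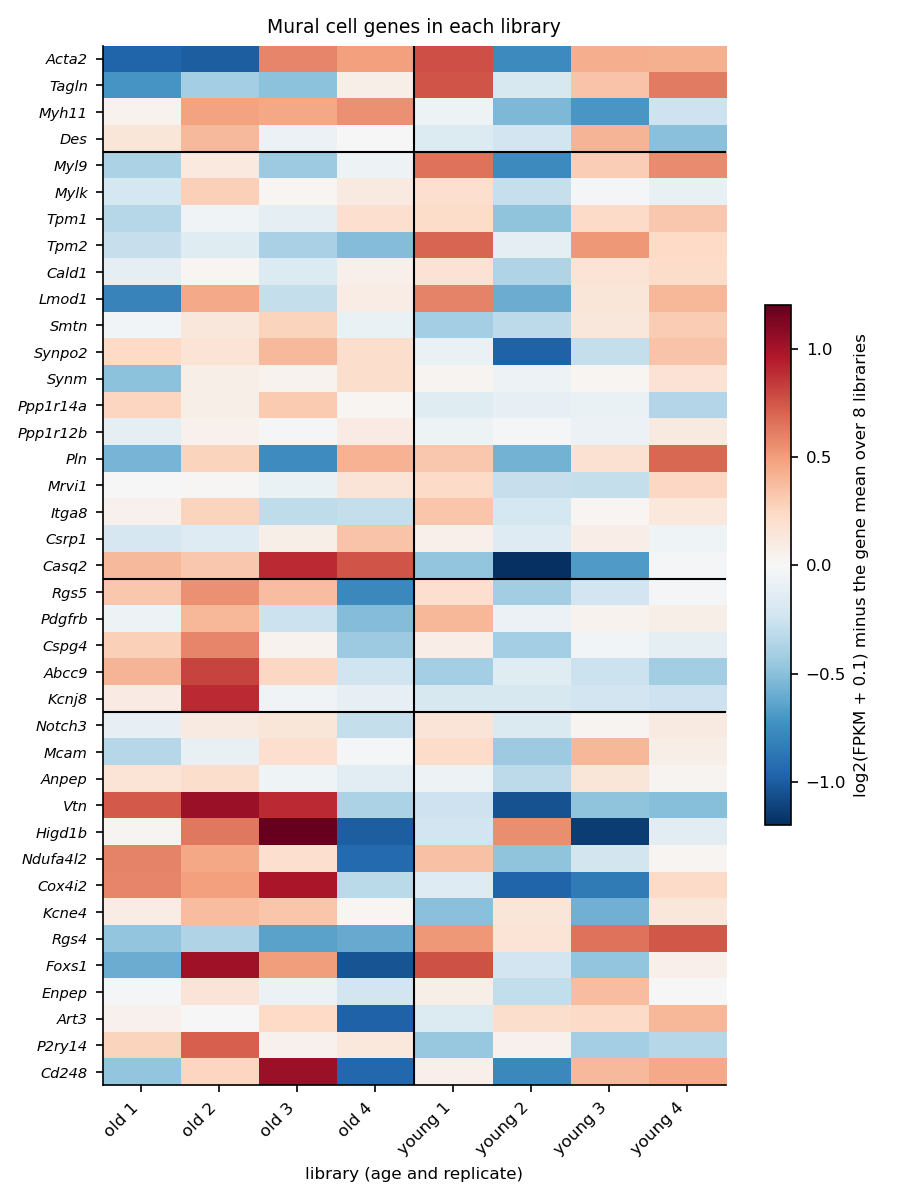
Log2(FPKM + 0.1) of the mural cell genes tested, minus each gene's mean over the 8 libraries (color scale in log2 units), with old libraries left of young ones. From top to bottom the blocks are the contractile genes described here, other contractile genes, the pericyte-associated genes described here and other pericyte-associated genes. Old replicate 2 is red and old replicate 4 blue for most of the third block, and Rgs4 is blue in all 4 old libraries.

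The factors that control these genes were tested for 10 of 11, and 0 passed in either direction (limma), with 4 higher and 2 lower at an unadjusted p under 0.05 and 1 higher and 0 lower of 6 with voom. Srf, the serum response factor named above, was 6.45, 6.61, 7.90 and 7.61 FPKM in old libraries, against 9.59, 8.32, 10.02 and 8.74 FPKM in young libraries. All old libraries lay below all young ones, and the log2 fold change was -0.36 (adjusted p = 0.128 from limma). Its coactivator Mkl1 lay the other way, at 2.12, 2.22, 2.68 and 2.22 FPKM in old libraries, against 1.28, 1.33, 1.59 and 1.82 FPKM in young libraries (log2 fold change 0.59, adjusted p = 0.069). Mef2c, a muscle transcription factor, had a log2 fold change of 0.65 (adjusted p = 0.094) and Foxc1, a forkhead factor of mural cell development, one of 0.60 (adjusted p = 0.135). Myocd, the smooth muscle coactivator myocardin, was at or below 0.023 FPKM in all 8 libraries and was not tested.

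The ligand of the Pdgfrb receptor, Pdgfb, was 2.53 to 3.64 FPKM in old and 2.73 to 3.62 FPKM in young libraries. Of the 4 ligands and the alpha receptor, all 5 tested, 0 passed in limma, 0 were higher and 1 was lower at an unadjusted p under 0.05, and 0 were higher and 1 lower of 4 with voom. Pdgfra, which marks fibroblasts and oligodendrocyte precursors, was the gene lower in both counts, with a log2 fold change of -0.72 (adjusted p = 0.076 from limma). Of 16 signals and receptors of the vessel wall, 13 were tested and 0 passed in either direction, with 2 higher and 1 lower at an unadjusted p under 0.05 and 1 higher and 0 lower of 7 with voom. Ednra, the endothelin receptor of smooth muscle, was 1.93, 1.84, 1.75 and 1.86 FPKM in old libraries, against 1.11, 1.17, 1.45 and 1.36 FPKM in young libraries, with a log2 fold change of 0.51 (adjusted p = 0.056). Ednrb, the other endothelin receptor, was 2.74 to 3.64 FPKM in old and 3.74 to 8.02 FPKM in young libraries, with one of -0.83 (adjusted p = 0.103). For neither receptor did the ages overlap, and the receptors lay in opposite directions. Gucy1b3, a subunit of the guanylate cyclase that senses nitric oxide, was 2.66 to 3.11 FPKM in old and 2.20 to 2.41 FPKM in young libraries, with a log2 fold change of 0.33 (unadjusted p = 0.00786, adjusted p = 0.104 from limma) and of 0.18 with median-ratio scaling. The KATP subunits of endocrine cells, Abcc8 and Kcnj11, were tested too, and 0 of 2 passed in limma, at an unadjusted p under 0.05 or with voom. Abcc8 was 0.929 to 1.23 FPKM in old and 0.830 to 1.36 FPKM in young libraries, and Kcnj11 1.47 to 1.98 FPKM in old and 1.36 to 3.01 FPKM in young libraries.

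Markers of other cells that touch vessels or share these genes were counted as well. The 12 endothelial markers summed to 90.6 to 123.5 FPKM in old and 85.7 to 119.1 FPKM in young libraries, and 0 of 12 passed in limma (1 higher and 1 lower at an unadjusted p under 0.05, and 1 higher and 0 lower of 11 with voom). Plvap was the largest part of this sum, at 57.3 FPKM in old and 52.6 FPKM in young pituitary on average. At the unadjusted threshold Esam was the higher gene (5.61 against 3.55 FPKM) and Cldn5 the lower (0.642 against 1.03 FPKM). Of 10 fibroblast markers, 9 were tested and 2 fell, the collagens Col1a1 (-1.55 on the log2 scale, adjusted p = 0.0107) and Col3a1 (-1.59, adjusted p = 0.0179, and up to 0.058 without young replicate 1 or 3 or old replicate 1). At an unadjusted p under 0.05, 0 were higher and 4 lower, and with voom 4 of 6 were lower. The sum of the 10 was 46.0 to 75.7 FPKM in old and 68.7 to 83.6 FPKM in young libraries. Most of it was the collagen Col1a2, which overlapped between the ages, at 52.9 FPKM in old and 54.4 FPKM in young pituitary on average. Dpt, Mfap5 and Pi16 had a higher mean in old pituitary and the other fibroblast markers a lower one. Skeletal and cardiac muscle markers, 12 in all, summed to 1.88 to 3.41 FPKM in old and 1.52 to 2.49 FPKM in young libraries, and 0 of the 4 tested passed in limma (2 higher and 0 lower at an unadjusted p under 0.05, and 0 of 3 with voom). The 2 higher ones were Myh7, at 1.06 FPKM in old and 0.583 FPKM in young pituitary on average, and Ckm, at 0.265 and 0.152 FPKM. Markers of oligodendrocytes and of their precursors, which carry Cspg4 too, summed to 5.83 to 7.28 FPKM in old and 4.40 to 4.71 FPKM in young libraries. Most of this sum was the myelin gene Mbp, at 5.13 FPKM in old and 3.76 FPKM in young pituitary on average. Gpr17 averaged 0.212 FPKM in old and 0.221 FPKM in young pituitary. Olig2 was at 0 in all libraries but old replicate 4, and Olig1, Sox10 and C1ql1 were too low to be tested. Of the 3 tested, Mbp passed as higher, with a log2 fold change of 0.44 (adjusted p = 0.048 from limma, and 0.060 to 0.12 with a library left out), and it was at 0.29 to 0.31 (adjusted p = 0.11 to 0.14) with the 3 other scalings. With voom 0 of 2 passed. The 8 macrophage markers summed to 49.2 to 68.0 FPKM in old and 22.8 to 39.5 FPKM in young libraries, and 1 of 8, Lyz2, passed as higher in limma, against 7 of 8 higher at an unadjusted p under 0.05, 7 of 8 with no overlap and 4 of 5 with voom. Lyz2 had an adjusted p of 0.048 from limma, 0.036 to 0.119 with a library left out and 0.054 to 0.059 with the 3 other scalings. The part of these cells in the values of the 10 genes was not tested.

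Of 14583 other genes that averaged 1 FPKM or more, those closest in pattern to the mean standardized level of the 5 contractile genes over the 8 libraries were DQ267101, Zfp36l1, Gm27286, Inpp5f and Myo1d (Pearson r 0.91 to 0.93). For the 5 pericyte-associated genes they were Med23, Trim21, Tstd3, H6pd and Asah1 (r 0.92 to 0.96). With 8 libraries and so many candidates, and with depth and library make-up shared by all genes of a library, these are descriptions.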

How the data were processed

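The paper's methods and the processing notes of the submitters state that the authors mapped paired-end reads to GRCm38 (STAR 2.6.1a), counted exon fragments per Ensembl gene (featureCounts) and computed the deposited FPKM with edgeR 3.28.1. The sources used here give no Ensembl release or strand setting. Old pituitary was compared with young by limma 3.58.1 (R 4.3.3, trend and robust off) on log2(FPKM + 0.1), two-sided, over the 23498 genes that averaged 0.1 FPKM or more, with Benjamini-Hochberg adjustment over all of them. This scale understates the change of low genes. The genes and gene lists were chosen with earlier results of these data known. All 10 genes are named, and of each other vessel-wall list those that passed or up to 4 with the smallest p. Fragments were computed back from the FPKM with GENCODE M21 exon lengths (91.3 to 92.1% of a library's low values came out whole, to within 0.01). For Acta2 and Myh11, the smallest length that gave whole fragments was fitted. Intervals are those of limma and rest on the spread between libraries, and the floor of 3 fragments covers counting error only. Alternatives were pseudocounts of 1 and 0.01, no filter, a minimum mean of 1 FPKM, median-ratio and upper-quartile scaling, library sizes without hormone and ribosomal RNA repeat genes, a mean-variance trend, a replicate block, each library left out, and, added after seeing the data, voom on recovered fragments and all of these for the other named genes. The fit was also run on simulated data with 200 genes changed, a check of the code that does not measure its power for these 10 genes. Each library counted as 1 replicate. No libraries of an age agreed within sampling noise, which cannot show whether they came from separate mice. Promoter windows (RefSeq, GRCm38.p6) were matched by symbol. Figures used Python 3.11.15, pandas 2.3.3 and matplotlib 3.10.9.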

Additional observations from a re-analysis of the deposited data

Results flagged for a closer look

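Among 22 sets of 4 libraries of 1 age looked at, 2 held a library far from the other 3 by Dixon's ratio (the gap to the nearest library over the whole range, above its 95% critical value), which chance gives in about 1 of 20 sets. Kcnj8 in old pituitary ranged over 1.97 to 4.05 FPKM with old replicate 2 apart (ratio 0.848). The summed posterior lobe markers in old pituitary ranged over 2.02 to 7.94 FPKM with old replicate 4 apart (ratio 0.860).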

How the results depend on the processing

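Of 158 values of the 9 genes tested under 18 alternatives, 156 kept their direction and their side of the threshold and 0 reversed. The other 2 were Myh11 and Abcc9 with voom, which took the genes called higher to 2, against 0. Cnn1 could be fitted without the filter alone (log2 fold change -0.23, adjusted p = 0.67). Acta2, Des, Myh11 and Cspg4 were not in the fit with a minimum mean of 1 FPKM.

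The 436 genes called higher among all genes became 689 with a pseudocount of 1, 263 without the filter, 796 with a minimum mean of 1 FPKM, 210 with median-ratio scaling, 211 with upper-quartile scaling, 213 without hormone and ribosomal RNA repeat genes in the library size, 705 with a mean-variance trend, 1048 with voom and 64 to 330 with a library left out. The 111 called lower became 210, 204 and 187 with those 3 scalings, 271 with voom and 23 to 167 with a library left out. With the replicate number as a block, 4 were higher and 0 lower. Same-numbered libraries deviated with correlations of -0.04 to 0.04, so the numbers were not taken as pairs. Of 330 values of the 19 other genes named with a test, 281 kept direction and side, 12 newly passed, 37 no longer passed and 0 reversed. At 9 to 39 fragments of Acta2 and 0 to 5 of Cnn1 per library, depth limits both genes.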
